A study of Mus musculus with 6 samples.

Results

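The 9 genes described here encode the TAM receptor tyrosine kinases (Mertk, Axl and Tyro3), the proteins that bridge dying cells to phagocytes (Gas6, Pros1 and Mfge8), the engulfment adaptors Elmo1 and Dock1, and Cd93, a receptor first described through C1q. They were taken by name: every non-control probe whose gene name in the array files is one of the 9 was read, which gave 19 probes, out of 37006 genes on the array. After a filter on dim probes 7 of the 9 could be tested, among 20817 genes tested in all; Mertk and Tyro3 did not pass it. Expression was measured on 6 arrays of 1 colour, with 2 arrays for each of 3 sorted fractions, to compare macrophage and dendritic cell subsets of the mouth. Fr3 was F4/80+CD206hi, Fr2 was CD11c-F4/80+CD206- and Fr1 was CD11c+CD206-. All 3 fractions came from mice of the inbred strain BALB/c, and FITC, a fluorescent dye that sensitises on contact, had been applied to their sublingual mucosa 2 times. No unpainted mice are among these samples, and the age, the sex and the number of mice in each sort are not given in the sources used here. Per the series' design text, replicates are from independent experiments. Tissue was taken from the tongue and digested for 30 min at 37 °C with collagenase and DNase before the sort.

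Cells that die by apoptosis expose phosphatidylserine, and phagocytes remove them by a process called efferocytosis. GAS6 and protein S, the product of Pros1, bind phosphatidylserine through a domain that needs vitamin K, and bind TAM receptors through their other end; MFG-E8, the product of Mfge8, links phosphatidylserine to integrins instead. Downstream of such receptors, ELMO1 and DOCK1 together activate the GTPase RAC1, which drives the membrane around the dead cell. In tissue macrophages, MERTK is widely used as a lineage marker, and signalling through MERTK and AXL also damps inflammatory responses.

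Levels are given as log2 of the background-subtracted probe signal minus the 75th percentile of the array, so that 0 is the signal of a probe at that percentile. Levels of different probes cannot be set against each other, and each gene was therefore compared with itself across fractions. A probe is called well above background by the scanner software's own test. Between 46.5% and 52.0% of spots passed that test on the Fr3 arrays, between 51.9% and 52.4% on the Fr2 arrays and between 44.6% and 46.6% on the Fr1 arrays, with 0 saturated spots on each. The Fr3 and Fr1 arrays shared 1 slide and scan and the Fr2 arrays lay on another, so slide and fraction cannot be told apart where Fr2 is compared. The Fr3 replicates were the least alike. They correlated with r = 0.796 across the genes tested, against 0.898 for Fr2 and 0.883 for Fr1, and 1582 genes were over 8-fold lower on Fr3 replicate 2 against 255 that were over 8-fold higher there. Probes with at most 30% T in their sequence lay at a median of 0.59 higher on Fr3 replicate 2 than on replicate 1, and probes with over 30% T at -0.27; in Fr1 the same medians were 0.40 and -0.39. The T content is therefore given beside each probe below, and its part in the results was not tested except where a value without such probes is given.

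The labels were checked against the sort markers, which are no finding between the fractions. Mrc1, the gene of CD206, was at 4.10 and 3.01 in Fr3, at 0.98 and 0.65 in Fr2, and at -3.75 and -3.18 in Fr1, where neither array was well above background. Itgax, the gene of CD11c, was at 0.52 and 1.29 in Fr3, at 3.10 and 1.53 in Fr2, and at 3.05 and 2.66 in Fr1. Itgax was thus well above background in Fr2, the fraction sorted as CD11c-. Mrc1 was also well above background on both Fr2 arrays, although Fr2 was sorted as CD206-. Adgre1, the gene of F4/80, was at 5.78 and 5.66 in Fr3, at 6.27 and 6.29 in Fr2, and at 4.83 and 4.70 in Fr1, which the labels do not define by F4/80.

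Gas6, Pros1, Dock1 and Cd93 lay higher on both Fr3 arrays than on both Fr1 arrays, the first 3 by 1.88 to 3.13 log2 units and Cd93 by 3.02 against the 1 Fr1 array that measured it, and Mfge8 and Axl lay lower, with differences of -2.15 and -1.34. Gas6 was set apart in Fr3 alone, whereas Pros1, Dock1 and Cd93 also lay higher in Fr2 than in Fr1. Elmo1 was highest on the Fr2 arrays on its brightest probe, Mertk was seen on 1 Fr3 array, and Tyro3 on none. No gene of the 9 passed the test across all genes in any of the 3 comparisons (limma's moderated test, Benjamini-Hochberg adjusted p under 0.05). That threshold called 1 gene in Fr3 minus Fr1 (0.0048% of the genes tested) and 1 gene in Fr3 minus Fr2 (0.0048%), in both cases the predicted gene Gm2042, looked up after the counts were known. In Fr2 minus Fr1 it called 0 genes (0%), where 2034 genes had an unadjusted p under 0.05 in limma. What follows is therefore a description of levels and intervals, and the words above and below refer to the arrays measured. In bulk samples such as these, fewer cells of a type and less RNA per cell cannot be told apart.

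**Figure D1:**
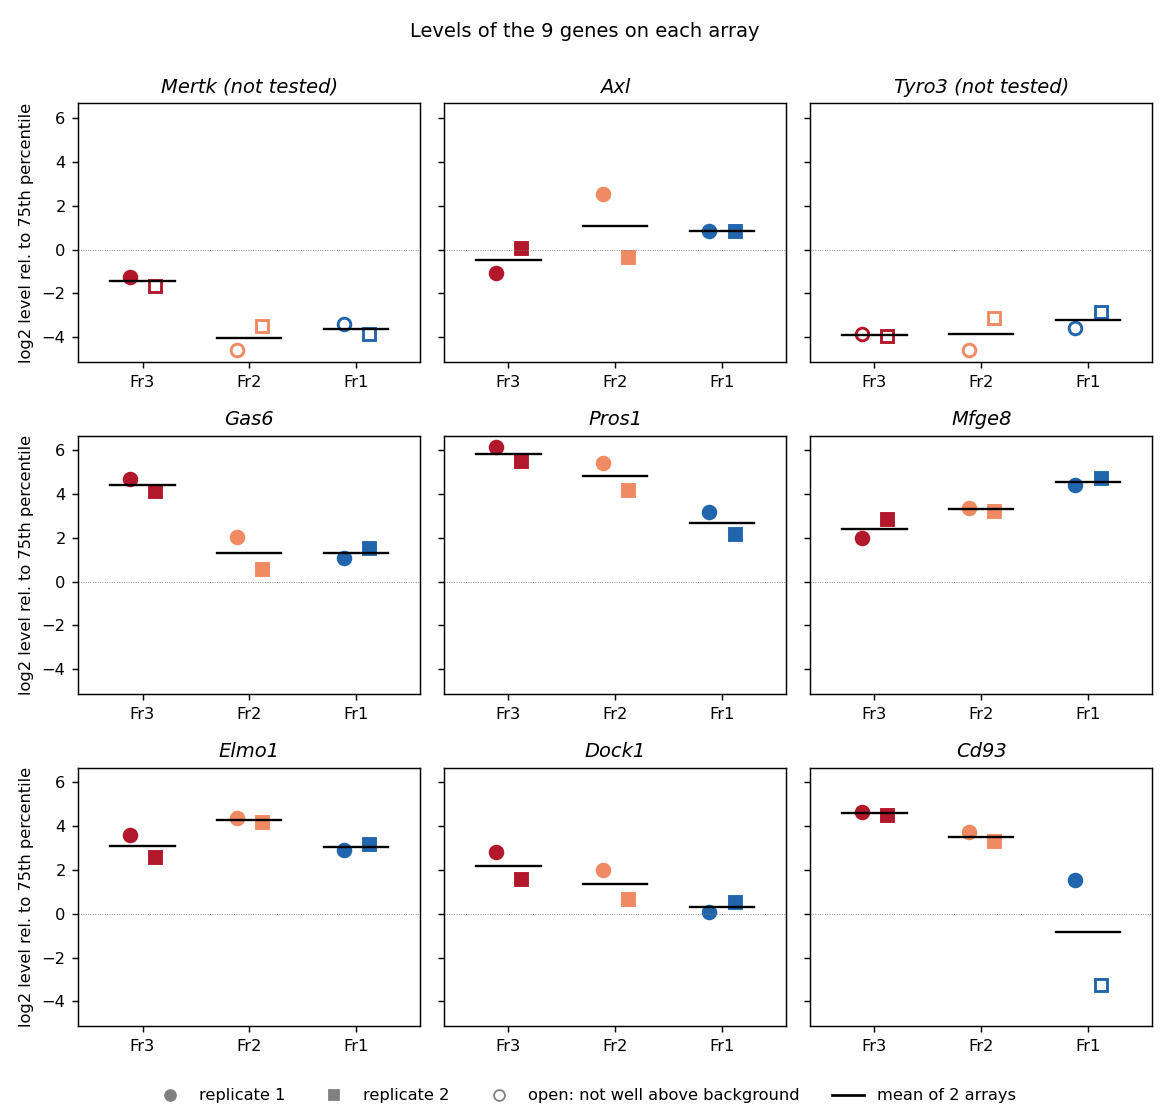
Levels of the 9 genes on each array, as log2 over the 75th percentile of each array, with fractions Fr3, Fr2 and Fr1 from left to right. Circles are replicate 1 and squares replicate 2, open where the probe was not well above background, and bars are means of 2 arrays. Gas6 sits above 4 on both Fr3 arrays and below 2.1 on the other 4, Mfge8 runs the other way, and one Fr1 array of Cd93 is open.

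Among the receptors, Mertk has 1 probe (mm9, chr2:128627867-128627926, plus strand, 21.7% T). Mertk was at -1.24 and -1.67 in Fr3, at -4.57 and -3.49 in Fr2, and at -3.40 and -3.84 in Fr1. Both Fr3 arrays lay above the other 4, but the probe was well above background on Fr3 replicate 1 alone, so the gene failed the filter and was not tested. Against the lowest signal well above background, its mean signal in Fr3 was at least 2.24-fold higher than in Fr2 and at least 1.40-fold higher than in Fr1, with 1 of 2 Fr3 arrays measured. On its 1 probe the macrophage marker of the family was thus near the limit of detection in Fr3 and not detected in Fr2 and Fr1.

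Axl, the receptor that GAS6 binds with the highest affinity in the family, has 2 kept probes that differ. The brighter one (mm9, chr7:26542335-26542394, minus strand, 28.3% T) was well above background on all 6 arrays. It was at -1.06 and 0.08 in Fr3, at 2.53 and -0.35 in Fr2, and at 0.86 and 0.84 in Fr1. The Fr2 arrays of this probe lay on either side of the Fr1 arrays, with the lower one between the Fr3 arrays, while both Fr3 arrays lay below both Fr1 arrays. The difference was -1.34 ± 0.99 for Fr3 minus Fr1 (SE; 95% interval -3.69 to 1.02; adjusted p = 0.704, limma) and -1.58 ± 0.99 for Fr3 minus Fr2 (adjusted p = 0.622, limma). Fr3 minus Fr2 was -0.14 without Fr2 replicate 1 and -3.02 without Fr2 replicate 2.

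The second Axl probe is printed because it splits the fractions further than the first (mm9, chr7:26545782-26545841, minus strand, 20% T; T in capitals here and for the other probes below).
Axl second probe: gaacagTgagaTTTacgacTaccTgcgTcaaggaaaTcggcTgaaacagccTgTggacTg
On this probe Axl was at -4.12 and -3.44 in Fr3, at 0.24 and -2.48 in Fr2, and at 0.68 and -0.15 in Fr1. Neither Fr3 array was well above background, while all 4 others were. Its mean signal in Fr1 was at least 5.75-fold higher than in Fr3, and that in Fr2 at least 2.20-fold higher than in Fr3. These are bounds from the lowest signal well above background. Both Axl probes thus lay lower on the Fr3 arrays than on the Fr1 arrays, by sizes that differ between the probes. Tyro3, the third receptor, has 2 probes and was not well above background on any of the 6 arrays, at levels between -4.73 and -2.87.

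The bridging proteins differed among themselves in which fraction was high. Gas6, a ligand of all TAM receptors, was at 4.71 and 4.15 in Fr3, at 2.04 and 0.58 in Fr2, and at 1.06 and 1.53 in Fr1 on its single probe (mm9, chr8:13465444-13465503, minus strand, 25.0% T). Both Fr3 arrays lay above the other 4 arrays, and the Fr2 and Fr1 arrays overlapped. Gas6 averaged 4.43 ± 0.40 in Fr3, 1.31 ± 1.04 in Fr2 and 1.29 ± 0.33 in Fr1 (SD, n = 2 arrays each). Fr3 minus Fr1 was 3.13 ± 0.68 (SE; 95% interval 1.51 to 4.75; adjusted p = 0.276, limma), which is 8.78-fold, and Fr3 minus Fr2 was 3.12 ± 0.68 (95% interval 1.5 to 4.74; adjusted p = 0.239, limma). Of all genes tested, 2.14% had a larger difference of either sign between Fr3 and Fr1. Fr2 minus Fr1 was 0.01 ± 0.68 (95% interval -1.61 to 1.63; adjusted p = 0.997, limma), an interval that still holds a 2-fold difference either way.

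Pros1 encodes protein S, a ligand of MERTK and TYRO3 and also a plasma anticoagulant. On its brightest probe (mm9, chr16:62929001-62929060, plus strand, 38.3% T) Pros1 was at 6.14 and 5.51 in Fr3, at 5.43 and 4.19 in Fr2, and at 3.20 and 2.18 in Fr1. The fractions did not overlap and stood in the order Fr3, Fr2, Fr1, although the nearest Fr3 and Fr2 arrays were 0.077 apart. Pros1 averaged 5.82 ± 0.44 in Fr3, 4.81 ± 0.88 in Fr2 and 2.69 ± 0.72 in Fr1 (SD, n = 2 arrays each). Fr3 minus Fr1 was 3.13 ± 0.70 (SE; 95% interval 1.47 to 4.79; adjusted p = 0.276, limma), Fr2 minus Fr1 was 2.12 ± 0.70 (adjusted p = 0.437, limma), and Fr3 minus Fr2 was 1.01 ± 0.70 (adjusted p = 0.638, limma). Fr3 and Fr2 thus do not differ beyond the error of the fit. A second kept probe of Pros1 (43.3% T) was at 1.63 and 1.01 in Fr3, at 0.71 and -1.39 in Fr2, and at 0.84 and -2.07 in Fr1, the last of these not well above background. On that probe Fr3 also lay above the other 4 arrays, while Fr2 and Fr1 overlapped. Its remaining probe was not kept, and was well above background on 1 Fr3 array and 1 Fr2 array, at -1.09 and -1.71.

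Mfge8 was highest on the Fr1 arrays, whereas Gas6 and Pros1 were highest on the Fr3 arrays. On its single probe (mm9, chr7:86278689-86278748, minus strand, 28.3% T) Mfge8 was at 2.00 and 2.84 in Fr3, at 3.38 and 3.22 in Fr2, and at 4.42 and 4.72 in Fr1. The fractions did not overlap and stood in the order Fr1, Fr2, Fr3. Mfge8 averaged 2.42 ± 0.60 in Fr3, 3.30 ± 0.11 in Fr2 and 4.57 ± 0.21 in Fr1 (SD, n = 2 arrays each). Fr3 minus Fr1 was -2.15 ± 0.57 (SE; 95% interval -3.51 to -0.79; adjusted p = 0.347, limma), Fr2 minus Fr1 was -1.27 ± 0.57 (adjusted p = 0.530, limma), and Fr3 minus Fr2 was -0.87 ± 0.57 (adjusted p = 0.628, limma). Neither of the last intervals leaves out 0, so Fr2 does not differ from either neighbour in that order beyond the error of the fit.

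The promoters of the bridging genes are shown because Gas6 and Pros1 were highest on the Fr3 arrays and Mfge8 on the Fr1 arrays. Gas6 and Pros1 parted on the Fr2 arrays, where Gas6 overlapped with Fr1 and the brightest probe of Pros1 lay above it. Each is the 250 bases before the annotated start on GRCm38.p6 from RefSeq, read along the gene, with GGGCGG on either strand (CCGCCC as printed for the other strand) in capitals; overlapping matches run together.
Gas6 promoter (chr8:13494536-13494785, minus strand): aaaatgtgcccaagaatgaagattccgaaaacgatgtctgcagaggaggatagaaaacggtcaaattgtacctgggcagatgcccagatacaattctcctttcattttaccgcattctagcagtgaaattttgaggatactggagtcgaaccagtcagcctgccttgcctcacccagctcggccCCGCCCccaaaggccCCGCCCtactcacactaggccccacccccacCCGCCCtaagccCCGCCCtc
Pros1 promoter (chr16:62854057-62854306, plus strand): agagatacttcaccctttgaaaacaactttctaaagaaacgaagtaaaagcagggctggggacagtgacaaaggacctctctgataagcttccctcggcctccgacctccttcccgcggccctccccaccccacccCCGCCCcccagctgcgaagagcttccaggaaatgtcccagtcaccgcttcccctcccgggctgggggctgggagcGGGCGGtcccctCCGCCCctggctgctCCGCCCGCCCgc
Mfge8 promoter (chr7:79149061-79149310, minus strand): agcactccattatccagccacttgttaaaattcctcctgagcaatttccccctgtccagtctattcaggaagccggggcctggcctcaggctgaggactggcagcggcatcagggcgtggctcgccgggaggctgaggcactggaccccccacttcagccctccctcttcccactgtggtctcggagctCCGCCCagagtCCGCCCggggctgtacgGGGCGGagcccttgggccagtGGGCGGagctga
The motif occurred 4 times in the Gas6 window, 5 times in that of Pros1 and 4 times in that of Mfge8. Its part in their levels was not tested. Of 32851 promoters of the same length, 32.7% held it at least 1 time and 8.47% held 3 or more. The table has an entry for 8 of the 9 genes, Cd93 having none, and all 8 held the motif in at least 1 promoter. 

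The adaptors came next. Elmo1 has 5 probes, of which 3 were kept. On the brightest (mm9, chr13:20698247-20698306, plus strand, 36.7% T) Elmo1 was at 3.61 and 2.61 in Fr3, at 4.36 and 4.18 in Fr2, and at 2.90 and 3.18 in Fr1. Both Fr2 arrays lay above the other 4, and the Fr3 and Fr1 arrays overlapped. Fr3 minus Fr2 was -1.16 ± 0.59 (SE; 95% interval -2.56 to 0.24; adjusted p = 0.598, limma), Fr2 minus Fr1 was 1.23 ± 0.59 (adjusted p = 0.555, limma), and Fr3 minus Fr1 was 0.07 ± 0.59 (95% interval -1.33 to 1.47; adjusted p = 0.991, limma). The intervals of all 3 differences hold 0, so no fraction differed from another beyond the error of the fit.

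Another kept probe of Elmo1 is printed because its replicates disagree (mm9, chr13:20382247-20382306, plus strand, 26.7% T).
Elmo1 further probe: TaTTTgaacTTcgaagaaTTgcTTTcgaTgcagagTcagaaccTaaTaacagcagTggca
On it Elmo1 was at -4.01 and 0.29 in Fr3, at 1.09 and 0.00 in Fr2, and at -1.96 and -1.29 in Fr1. The Fr3 arrays were thus over 4 log2 units apart on this probe, with replicate 1 not well above background, and on the brightest probe replicate 1 was the higher of the pair. The third kept probe (28.3% T) was at -4.62 and -3.20 in Fr3, at -1.86 and -1.83 in Fr2, and at -0.35 and -3.85 in Fr1. Here the Fr1 arrays were far apart, and 1 of them lay above both Fr2 arrays. With the mean of all kept probes, Fr3 minus Fr1 of Elmo1 was -0.66 (adjusted p = 0.810, limma), so its sign is not settled.

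Dock1, the partner of ELMO1 that acts on RAC1, has 3 probes and 1 was kept (mm9, chr7:142365133-142365192, plus strand, 36.7% T). Dock1 was at 2.81 and 1.58 in Fr3, at 2.02 and 0.66 in Fr2, and at 0.09 and 0.55 in Fr1. Both Fr1 arrays lay below the other 4, by 0.11 at the nearest, and the Fr3 and Fr2 arrays overlapped. Fr3 minus Fr1 was 1.88 ± 0.73 (SE; 95% interval 0.14 to 3.61; adjusted p = 0.579, limma), Fr2 minus Fr1 was 1.02 ± 0.73 (adjusted p = 0.679, limma), and Fr3 minus Fr2 was 0.85 ± 0.73 (adjusted p = 0.680, limma). A probe of Dock1 that was not kept is printed for the same reason as that of Elmo1 (mm9, chr7:142343955-142344014, plus strand, 16.7% T).
Dock1 further probe: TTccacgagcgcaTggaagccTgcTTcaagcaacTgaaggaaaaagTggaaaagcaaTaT
Dock1 was at -4.44 and 0.80 in Fr3 on this probe, at -3.88 and -2.29 in Fr2, and at -3.08 and -3.92 in Fr1. It was well above background on Fr3 replicate 2 and Fr2 replicate 2 alone. The printed probes of Axl, Elmo1 and Dock1 hold 12, 16 and 10 T of 60 bases, at most 30% of each; those of Elmo1 and Dock1 were picked because their replicates disagree. Other probes of at most 30% T ran the other way between the Fr3 replicates, among them those of Gas6, Cd93 and Mertk. The third Dock1 probe was not well above background on any array.

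**Figure D2:**
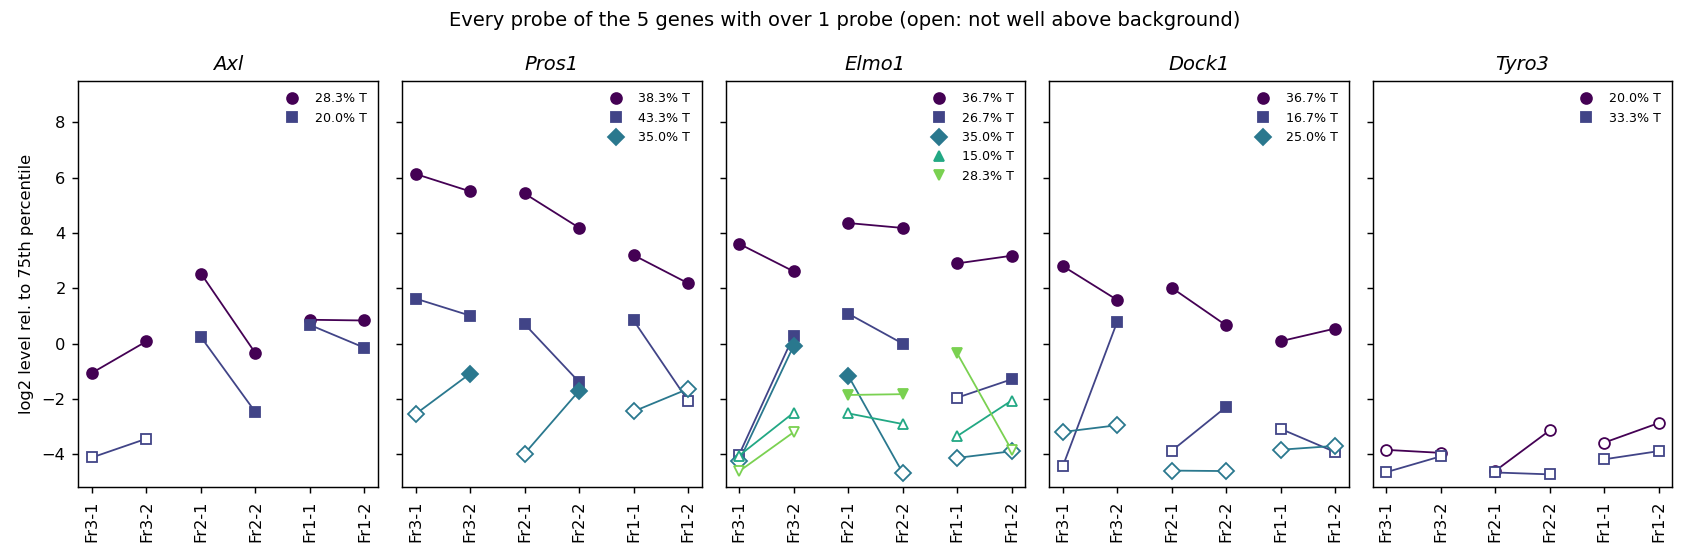
Every probe of the 5 genes that have over 1 probe, as log2 level over the 75th percentile (vertical axis) on each array, Fr3, Fr2 and Fr1 from left to right and the replicate after the hyphen. Lines join the 2 replicates of a fraction, open symbols were not well above background, and legends give each probe's share of T. The brightest probes of Pros1 and Dock1 fall to the right, and further probes of Elmo1 and Dock1 jump between the 2 Fr3 arrays.

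Cd93 encodes a membrane glycoprotein with a C-type lectin domain, found on myeloid cells and endothelium, and mice that lack it clear apoptotic cells less well. On its single probe (mm9, chr2:148262436-148262495, minus strand, 25.0% T) Cd93 was at 4.66 and 4.51 in Fr3, at 3.73 and 3.32 in Fr2, and at 1.56 and -3.23 in Fr1. The fractions did not overlap and stood in the order Fr3, Fr2, Fr1, but the Fr1 arrays were far apart and replicate 2 was not well above background. Cd93 averaged 4.58 ± 0.10 in Fr3, 3.52 ± 0.29 in Fr2 and -0.84 ± 3.39 in Fr1 (SD, n = 2 arrays each). Fr3 minus Fr1 was 5.42 ± 1.41 (SE; 95% interval 2.07 to 8.78; adjusted p = 0.347, limma) and Fr2 minus Fr1 was 4.36 ± 1.41 (adjusted p = 0.434, limma), both with 1 of 2 Fr1 arrays at background. Against the measured Fr1 array, replicate 1, Fr3 minus Fr1 was 3.02 and Fr2 minus Fr1 was 1.96; without that array they were 7.82 and 6.76. Fr3 minus Fr2 was 1.06 ± 1.41 (95% interval -2.29 to 4.42, adjusted p = 0.796, limma). That error pools the spread of all 3 fractions, and the Fr1 pair, with 1 array at background, is the widest. The nearest Fr3 and Fr2 arrays were 0.78 apart, so this interval does not settle whether these neighbours differ. With only the arrays of the 2 groups, the adjusted p was 0.686 (limma).

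**Figure D3:**
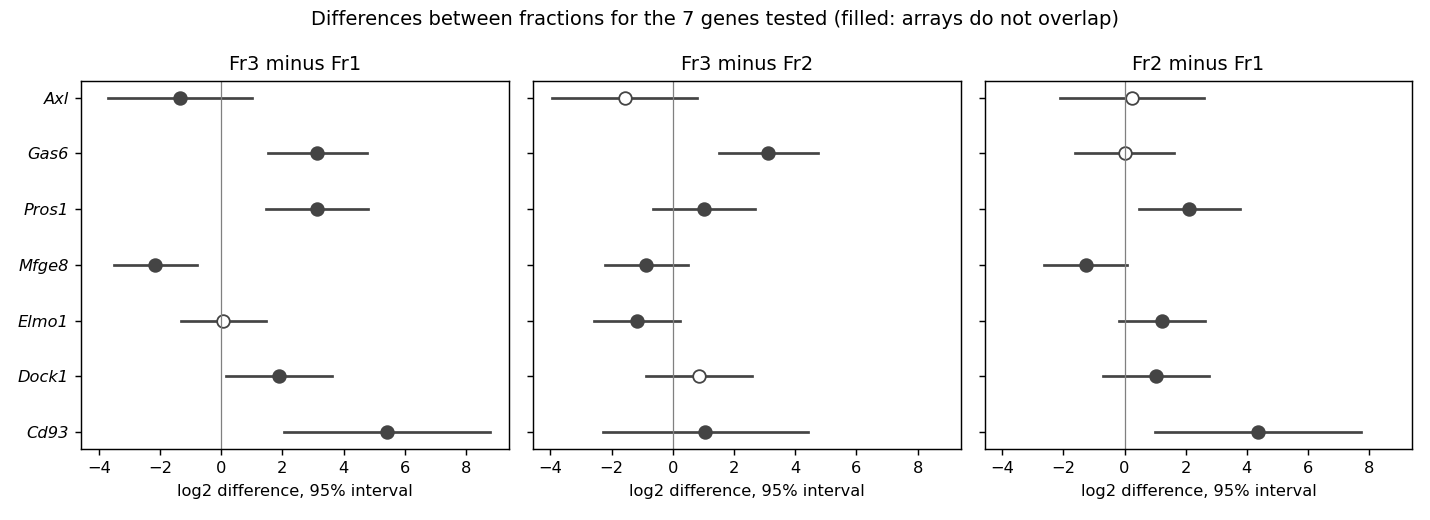
Log2 differences between fractions for the 7 genes tested, with 95% intervals from limma, in panels for Fr3 minus Fr1, Fr3 minus Fr2 and Fr2 minus Fr1. Filled points mark genes whose arrays did not overlap between the 2 fractions. Gas6, Pros1, Dock1 and Cd93 lie to the right of 0 in the first panel and Mfge8 to the left, with intervals that leave out 0 and adjusted p-values that do not pass 0.05.

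Counted together, the arrays of Fr3 and Fr1 did not overlap for 6 of the 7 genes tested, where 35.6% of all genes tested did not. Of the 6, 4 were higher in Fr3 (21.9% of all genes) and 2 lower (13.7%). An unadjusted p under 0.05 was reached by 5 of the 7 (8.15% of all genes), 4 of them higher in Fr3 (5.36%) and 1 lower (2.8%). Between Fr3 and Fr2, 5 of 7 did not overlap (42% of all genes), 3 higher in Fr3 (22.6%) and 2 lower (19.5%). There 1 gene, Gas6, had an unadjusted p under 0.05 (8.91% of all genes), higher in Fr3 (4.06%), and 0 were lower (4.84%). Between Fr2 and Fr1, 5 of 7 did not overlap (45% of all genes), 4 higher in Fr2 (22.2%) and 1 lower (22.7%). There 2 genes, Pros1 and Cd93, had an unadjusted p under 0.05 (9.77% of all genes), both higher in Fr2 (6.42%), and 0 were lower (3.35%). The median difference of the 7 was 1.88 for Fr3 minus Fr1, where that of all genes tested was 0.05; it was 0.85 against 0.08 for Fr3 minus Fr2, and 1.02 against -0.04 for Fr2 minus Fr1. The comparisons share arrays, so these values are not independent of each other, and the 7 are those that passed the filter, not all 9 genes. The 9 genes were chosen with earlier results of these data known, so their counts beside those of all genes are a description only.

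Among the 7 genes, the pair most alike across the 6 arrays was Pros1 and Dock1, with a root mean square difference of 0.72 log2 units after each gene was centred on its mean. The pair least alike was Mfge8 and Cd93, at 3.54. Over all tested genes outside the 9 and with an established name (13114 genes), the closest to Gas6 were Serpinb6c (0.093), Clpx (0.17) and Rhoj (0.21). Serpinb6c was at -0.60 and -1.11 in Fr3, at -3.37 and -4.79 in Fr2, and at -4.26 and -4.02 in Fr1. Measurement reached down to -2.60 and -2.64 in Fr2 and to -2.07 and -1.80 in Fr1, the lowest levels well above background there. Serpinb6c and Rhoj lay under them on all 4 of these arrays and Clpx on 3, so these distances rest partly on background values. Closest to Pros1 were Gfra2 (0.19), Arhgap18 (0.20) and Lima1 (0.22), and among the closest to Mfge8 were Plxdc1 (0.21) and Zeb1 (0.23). Closest to Elmo1 were Sec11a (0.12), Phf8 (0.15) and Man2b1 (0.16), to Dock1 Myo5a (0.17), Mocs2 (0.22) and Rab6a (0.23), and to Axl Tmem119 (0.28), Fmnl3 (0.35) and Mgat5 (0.37). No gene came as close to Cd93, whose nearest was Spaca6 (0.76). On Fr1 replicate 2 both lay under the lowest level well above background, Cd93 at -3.23 and Spaca6 at -3.39. Arhgap18 and Rab6a lay under that limit on both Fr1 arrays, and Zeb1 and Fmnl3 on both Fr3 arrays. These distances thus rest partly on background values too. With this many genes and 6 arrays such matches are a description only.

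The 105 other genes of the pathway were all on the array, 89 were tested and 0 were called in any comparison (limma, adjusted p under 0.05), while 11 of the 89 had an unadjusted p under 0.05 in Fr3 minus Fr1 (8.15% of all genes tested), 14 in Fr3 minus Fr2 (8.91%) and 7 in Fr2 minus Fr1 (9.77%). Their arrays did not overlap between Fr3 and Fr1 for 21 genes higher in Fr3 (21.9% of all genes tested) and 11 lower (13.7%), which are the shares to set beside each list's count for these fractions below. Their median differences were 0.09, 0.03 and 0.24 in Fr3 minus Fr1, Fr3 minus Fr2 and Fr2 minus Fr1. Among other receptors for dying cells, 18 of 20 were tested, and between Fr3 and Fr1 1 lay higher in Fr3 and 2 lower without overlap. Havcr2 encodes TIM-3, a phosphatidylserine receptor of dendritic cells. Havcr2 was at -2.33 and -1.20 in Fr3, at 3.77 and 2.65 in Fr2, and at 3.40 and 3.02 in Fr1, and Fr3 minus Fr1 was -4.97 ± 0.68 (SE; adjusted p = 0.145, limma). Both Fr3 arrays lay below all others, with 1 of them not well above background. Stab1, the gene of the scavenger receptor stabilin-1, ran the other way, at 2.41 and 2.92 in Fr3, at -0.98 and -3.26 in Fr2, and at -1.87 and -1.24 in Fr1. Stab1 was well above background on only 1 of its Fr2 arrays. Its Fr3 minus Fr1 was 4.22 ± 0.84 (SE; adjusted p = 0.235, limma). Trem2, a lipid receptor of macrophages, was at 4.0 and 1.93 in Fr3, at 4.80 and 4.10 in Fr2, and at 2.27 and 1.55 in Fr1, where the Fr3 arrays overlapped with Fr1 and both Fr2 arrays were the highest.

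Of the other opsonins, 12 of 15 were tested, and 5 lay higher in Fr3 than in Fr1 without overlap (21.9% of all genes tested) and 1 lower (13.7%). C1qc, a chain of the complement protein C1q, was at 4.20 and 4.04 in Fr3, at 3.21 and 2.51 in Fr2, and at 2.35 and 2.29 in Fr1. The other C1q chains did not share its order of fractions: mean levels of C1qb were 3.06 in Fr3, 1.27 in Fr2 and 2.68 in Fr1, and those of C1qa 0.30 in Fr3, -1.30 in Fr2 and -0.47 in Fr1. Anxa1, which encodes a phosphatidylserine-binding annexin, was at 4.70 and 4.48 in Fr3, at 4.63 and 4.88 in Fr2, and at 2.40 and 3.00 in Fr1. Thbs1, the gene of thrombospondin-1, was at -0.51 and -0.81 in Fr3, at 1.38 and 2.80 in Fr2, and at 0.32 and -0.81 in Fr1. Fr3 minus Fr1 was 1.80 ± 0.55 for C1qc (adjusted p = 0.429, limma) and 1.89 ± 0.55 for Anxa1 (adjusted p = 0.413, limma), and Fr3 minus Fr2 was -2.75 ± 0.72 for Thbs1 (adjusted p = 0.321, limma).

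Relatives of the engulfment adaptors were tested for 15 of 17 genes, with 3 higher and 2 lower in Fr3 than in Fr1 without overlap. Crkl, which encodes an adaptor upstream of the DOCK1 complex, was at -1.91 and -0.81 in Fr3, at 0.47 and 0.42 in Fr2, and at -4.23 and -3.97 in Fr1, where it was not well above background. Like Elmo1, Crkl was highest on the Fr2 arrays. Abca1, the gene of the cholesterol exporter that macrophages use after taking up dead cells, was at 4.37 and 3.25 in Fr3, at 3.34 and 1.17 in Fr2, and at 1.44 and 0.95 in Fr1. Abca7, its relative, was at -2.26 and -2.0 in Fr3, at -0.32 and -0.84 in Fr2, and at -1.38 and -0.27 in Fr1. Only 1 Fr3 array of Abca7 was well above background. Both Fr3 arrays thus lay above Fr1 for Abca1 and below Fr1 for Abca7.

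GAS6 and protein S need a vitamin K dependent carboxylation, and the genes of that cycle were all tested (5 of 5). Between Fr3 and Fr1 1 of them did not overlap, Vkorc1, the gene of the vitamin K epoxide reductase, at 1.76 and 2.30 in Fr3, at 2.36 and -1.09 in Fr2, and at 0.42 and -0.05 in Fr1. Vkorc1l1, its relative, was at 1.03 and 1.09 in Fr3, at 1.21 and -2.43 in Fr2, and at 1.54 and 0.89 in Fr1. It was well above background on only 1 of its Fr2 arrays. Nqo1, a quinone reductase, overlapped between Fr3 and Fr1, with only 1 array of each well above background. Of other proteins with the same modification, 7 of 12 were tested and F10, the gene of coagulation factor X, lay higher in Fr3 than in Fr1, at 0.58 and 0.81 in Fr3, at -0.30 and 1.31 in Fr2, and at -1.48 and 0.02 in Fr1. F7, which encodes factor VII, lay higher in Fr3 than in Fr2 at levels under -1 throughout. It was well above background on only 1 array of Fr2 and 1 of Fr1. Prrg1, a membrane member of the family, overlapped in all 3 comparisons.

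Genes of TAM receptor shedding and feedback were tested for 10 of 11, and 6 lay lower in Fr3 than in Fr2 without overlap (19.5% of all genes tested) and 0 higher (22.6%), with a median of -0.65 where that of all genes was 0.08. Adam17, the gene of a protease that cuts MERTK from the cell surface, was at 2.48 and 2.01 in Fr3, at 3.30 and 3.03 in Fr2, and at 2.48 and 2.92 in Fr1. Ifnar2, a chain of the interferon receptor through which TAM signalling acts, was at 3.39 and 2.31 in Fr3, at 4.23 and 3.57 in Fr2, and at 3.51 and 3.77 in Fr1. Pik3r1, the regulatory subunit of a kinase downstream of TAM receptors, was at 1.49 and 3.10 in Fr3, at 3.61 and 4.39 in Fr2, and at 2.87 and 2.87 in Fr1. Fr3 minus Fr2 was -0.92 ± 0.55 for Adam17 (adjusted p = 0.611, limma), -1.05 ± 0.62 for Ifnar2 (adjusted p = 0.611, limma) and -1.71 ± 0.71 for Pik3r1 (adjusted p = 0.554, limma).

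Of find-me and do-not-eat-me receptors, 10 of 12 were tested, with 3 higher and 3 lower in Fr3 than in Fr1 without overlap. P2ry12, a nucleotide receptor, was at 1.00 and 0.84 in Fr3, at -1.28 and -1.23 in Fr2, and at -1.48 and -1.74 in Fr1. Only 1 Fr1 array of P2ry12 was well above background. Cd24a, the gene of a do-not-eat-me ligand, was at 2.59 and 2.42 in Fr3, at 4.75 and 5.75 in Fr2, and at 3.74 and 3.68 in Fr1. Sirpa, the receptor for CD47, was at 3.57 and 2.43 in Fr3, at 4.44 and 4.01 in Fr2, and at 2.84 and 2.11 in Fr1. P2ry12 was high in Fr3, and Cd24a and Sirpa on the Fr2 arrays; Fr3 minus Fr1 was 2.53 ± 0.52 for P2ry12 (adjusted p = 0.249, limma).

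Transcription factors tied to efferocytosis were all tested (10 of 10), and 6 lay higher in Fr3 than in Fr1 without overlap (21.9% of all genes tested) and 1 lower (13.7%), with a median of 0.78 where that of all genes was 0.05. Maf, a transcription factor of macrophages, was at 2.90 and 1.40 in Fr3, at 1.15 and -3.29 in Fr2, and at -4.39 and -1.98 in Fr1. Neither Fr1 array of Maf was well above background, and only 1 Fr2 array was. Ppard, a nuclear receptor for fatty acids, was at 1.48 and 0.93 in Fr3, at -0.57 and -0.18 in Fr2, and at 0.01 and -0.15 in Fr1. Of the lectins related to CD93, 2 of 3 were tested: Thbd, the gene of thrombomodulin, was at 2.13 and 0.63 in Fr3, at 0.26 and 0.42 in Fr2, and at 0.54 and 0.05 in Fr1, and Cd248 overlapped between Fr3 and both other fractions.

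**Figure D4:**
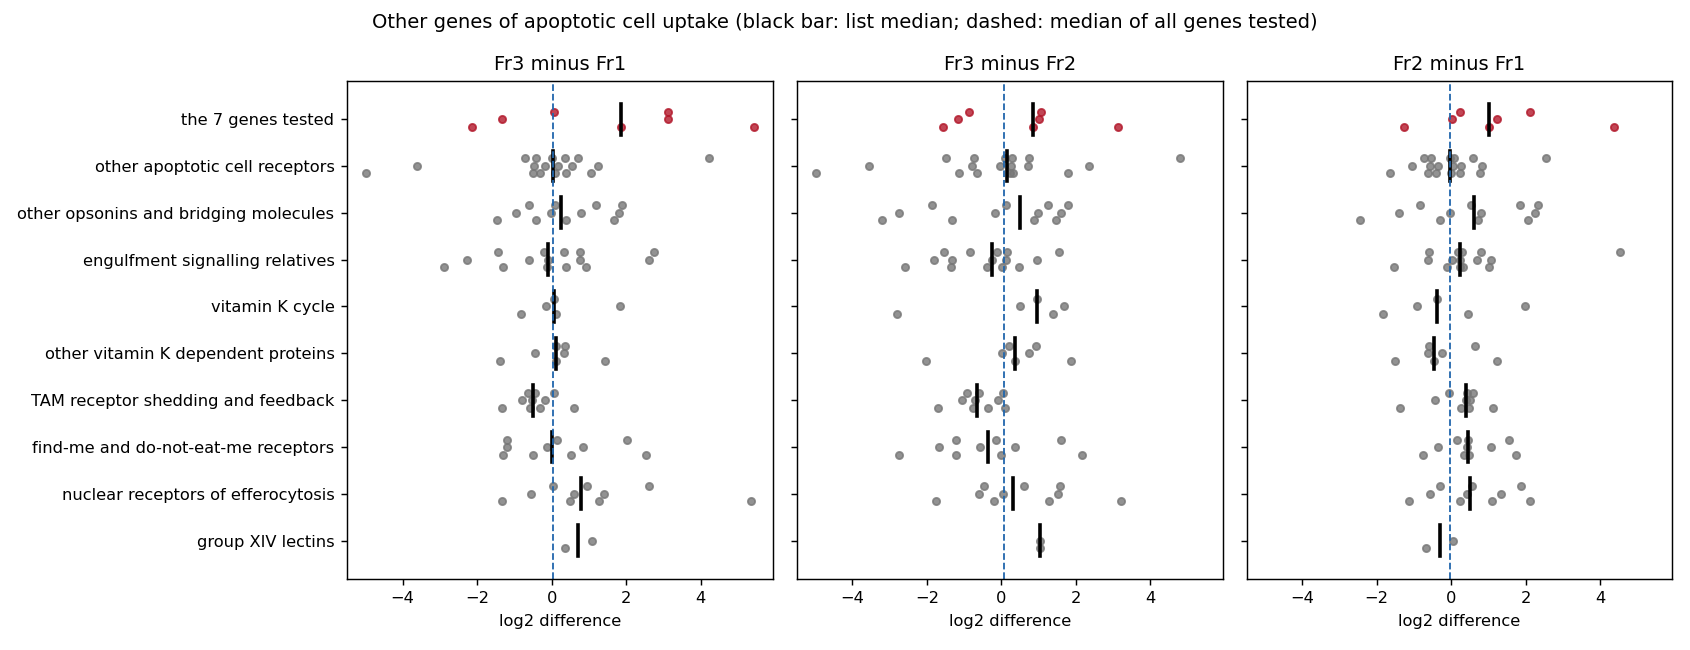
Log2 differences of every tested gene in the 9 lists of other genes of apoptotic cell uptake, with the 7 genes tested on top, in panels for Fr3 minus Fr1, Fr3 minus Fr2 and Fr2 minus Fr1. Black bars are list medians and the dashed line is the median of all genes tested. Most lists have members on both sides of the dashed line, and the median of the 7 is 1.88 in the first panel.

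Markers of other cell types were summed per array on the linear scale, in units of the array's 75th percentile, beside these results. The 10 macrophage markers summed to 607 and 547.5 in Fr3, to 459.8 and 238.3 in Fr2, and to 126.8 and 117.5 in Fr1. Pros1 and Cd93 stood in that order too, and the part of these markers in their levels was not tested. Mrc1 and Adgre1, which defined the sort, are among these markers. The 10 markers of conventional dendritic cells summed to 108.8 and 259.9 in Fr3, to 295.6 and 113.6 in Fr2, and to 213.0 and 244.5 in Fr1, nearly all of it from H2-Ab1, which macrophages also express. Itgax, which defined the sort of Fr2 and Fr1, is among these markers. Ccr7 was at -0.72 and -1.29 in Fr3, at -0.14 and 0.37 in Fr2, and at 0.98 and 0.83 in Fr1, and Btla was at -4.17 and -3.09 in Fr3, at -2.13 and -2.75 in Fr2, and at -0.50 and -1.15 in Fr1. Both lay higher in Fr1 than in the other fractions without overlap, as did Kmo and Clec9a. The rest of the list, Flt3, Zbtb46, Dpp4, Xcr1, H2-Ab1 and Itgax, did not. Xcr1 was highest on the Fr2 arrays, at 1.16 and 0.85, against 0.03 and -2.17 in Fr1. Endothelium, which is known to express Cd93, Pros1 and Gas6, had sums of 4.3 and 7.3 in Fr3, 4.7 and 6.0 in Fr2, and 6.6 and 6.9 in Fr1. Kdr, Tek, Tie1 and Emcn, 4 of its 10 markers, were not well above background on any array, and the sums of the fractions overlapped. Vwf was well above background on all 6 arrays, Cdh5 and Egfl7 on 5, Cldn5 on 3, Esam on 2 and Pecam1 on 1. The part of endothelium in the levels of Cd93, Pros1 and Gas6 was not tested. Fibroblasts are a cell type known for Axl, Gas6 and Mfge8. Their markers summed to 4.9 and 4.6 in Fr3, to 10.7 and 5.8 in Fr2, and to 5.8 and 2.3 in Fr1. Pdgfrb, Dpt and Fap of the 10 were not well above background on any array. Col1a2 was well above background on all 6 arrays, Col1a1 and Thy1 on 5, Col3a1 and Lum on 4, Dcn on 3 and Pdgfra on 2.

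Neutrophil markers (10 genes) summed to 173 and 176 in Fr3, to 795 and 818 in Fr2, and to 303 and 368 in Fr1, and eosinophil markers (8 genes) to 9.1 and 15.9 in Fr3, to 100.6 and 196 in Fr2, and to 24.9 and 25.2 in Fr1. Both were highest on the Fr2 arrays, as were Elmo1, Crkl, Cd24a and Sirpa, and their part in those levels was not tested. Epithelial markers (10 genes) summed to between 183 and 293 in Fr3, between 205 and 219 in Fr2, and between 189 and 244 in Fr1, nearly all of it from Trp63; Krt18 was at 2.27 and 0.71 in Fr3, at 2.75 and 3.06 in Fr2, and at -0.22 and -0.18 in Fr1, and Krt5 was not well above background on any array. Platelet markers summed to 11 and 5.6 in Fr3, to 2.5 and 3.3 in Fr2, and to 18.8 and 8.5 in Fr1. T and NK cell markers summed to 10.2 and 7.1 in Fr3, to 10.6 and 13.2 in Fr2, and to 28.5 and 22.0 in Fr1, and B cell markers to between 20.7 and 29.3 in Fr3, 8.8 and 30.4 in Fr2, and 21.7 and 26.3 in Fr1, with Cd79a among the markers not well above background on any array. Mast cell markers summed to at most 3.5 in Fr3, 12 in Fr2 and 6.3 in Fr1, and skeletal muscle markers to at most 12.7 in Fr3, 7.1 in Fr2 and 9.6 in Fr1; Cpa3, Fcer1a and Ckm of these were not well above background on any array.

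**Figure D5:**
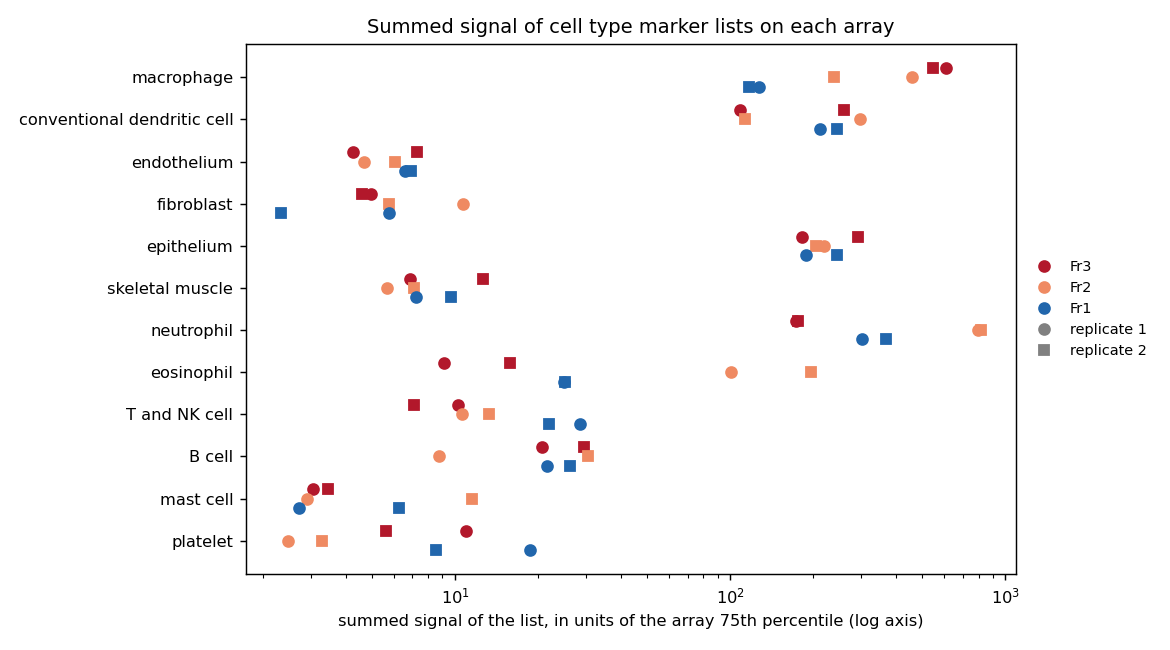
Summed signal of 12 cell type marker lists on each array, in units of the array's 75th percentile on a log axis, with Fr3, Fr2 and Fr1 in different colours and replicates in different shapes. The macrophage list is highest on the Fr3 arrays, at 607 and 547.5, and the neutrophil and eosinophil lists on the Fr2 arrays; the endothelial and fibroblast lists stay under 11 on every array.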

How the data were processed

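The authors scanned 1-colour Cy3 arrays; per the file headers, Agilent Feature Extraction 11.5.1.1 then gave spot intensity values with the background subtracted, and probe positions on mm9. Per the labels' protocols, the RNA was first amplified over the whole transcriptome. The authors' deposited table holds log2 values, centred on each array's 75th percentile; it correlated with the scanner values at r of at least 0.9999 across probes and served as an alternative.

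Spots of one probe were averaged, and 4 probes with an outlier flag were left out of 56605. Levels are log2 of the processed signal minus the array's 75th percentile. The filter kept the 27867 probes that both arrays of some fraction measured well above background, and each gene took the brightest of its probes. Names were updated through RefSeq, using the accession for 32987 probes, the symbol for 10227 and a synonym for 519; the other 12868 names are those of the files. A model of 3 group means over 6 arrays was fitted with limma 3.58.1 (R 4.3.3, Python 3.11.15), moderated, two-sided and Benjamini-Hochberg adjusted over 20817 genes, after a test on simulated data. An "at least" fold takes, for the dimmer fraction, the mean over its arrays of the larger of 2 values: the signal of the probe itself, and the dimmest signal on that array still well above background. That dimmest signal is not a strict limit of detection, and such folds are bounds under this rule only. Mertk on Fr3 replicate 2 was not well above background at -1.67, where the dimmest such signal was at -1.95. The precision is limited by the 2 arrays of each fraction. The p-values rest on the spread between replicate arrays, pooled over all 3 fractions and moderated across genes.

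The 9 genes, the 9 pathway lists, the 12 marker lists and the tests were chosen with earlier results of these data known. Of each pathway list, the 3 tested genes with the smallest p of the F-test over the fractions were named, and of each of the 7 genes the 3 most alike over the arrays. A few genes that these rules take are not reported here. Alternatives were other background corrections, normalizations, filters and probe rules, fewer arrays and the replicate number as a block. Probe sequences are from the array files and promoters from RefSeq; protein sequences were not used here.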

Additional observations from a re-analysis of the deposited data

How the results depend on the processing

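In the 16 other settings no gene of the 9 was called in any comparison in which it was tested (limma). Mertk and Tyro3 were tested only without the filter on dim probes, and Cd93 was not tested with probes above background on all arrays. The smallest adjusted p was 0.0924 (limma), of Mfge8 in Fr3 minus Fr1. The count of genes called moved, and the cause was not tested. In Fr3 minus Fr1 it was 1, and 0 with normexp background (1875 genes at an unadjusted p under 0.05), 0 without the filter on dim probes (2323), 0 with every kept probe as a feature (2431), 0 with only the arrays of the 2 groups (1529) and 12 without probes over 30% T. In Fr3 minus Fr2 it was 1, and 8 with normexp, 14 with probes above background on all arrays, 56 without probes over 30% T and 0 with only the arrays of the 2 groups (1621). In Fr2 minus Fr1 it was 0, and 7 without probes over 30% T and 3 with only the arrays of the 2 groups. Leaving out 1 array gave 0 to 1407 genes in Fr3 minus Fr1 and 0 to 933 in Fr3 minus Fr2, both highest without Fr3 replicate 1, and 0 to 3 in Fr2 minus Fr1.

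The members whose arrays did not overlap were 3 without probes over 30% T, in place of 5, both in Fr3 minus Fr2 and in Fr2 minus Fr1; that setting leaves no probe of Pros1 and Dock1. Signs turned for 3 small differences. Fr3 minus Fr1 of Elmo1 (0.07) was -0.067 with quantile normalization, -0.66 with the mean of all kept probes, -0.24 without probes over 30% T and -0.43 to 0.57 on leaving out 1 array. Fr2 minus Fr1 of Axl (0.24) was -0.57 with the mean of all kept probes and -1.20 to 1.68 on leaving out 1 array. Fr2 minus Fr1 of Gas6 (0.01) was -0.052 with quantile normalization and -0.72 to 0.75 on leaving out 1 array. Fr3 minus Fr1 kept its sign in every setting that gave a value for Gas6 (2.55 to 3.42), Pros1 (2.53 to 3.64), Mfge8 (-2.57 to -1.66), Dock1 (1.07 to 2.49), Cd93 (3.02 to 7.82) and Axl (-2.69 to -0.44). On leaving out 1 array, Fr3 minus Fr2 ran from -3.02 to -0.14 for Axl, 0.39 to 1.63 for Pros1, 0.17 to 1.53 for Dock1, -1.29 to -0.45 for Mfge8, -1.66 to -0.66 for Elmo1 and 2.39 to 3.85 for Gas6, and Fr2 minus Fr1 from 1.96 to 6.76 for Cd93.

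The labels give the fractions the same replicate numbers, 1 and 2, with no statement that a number marks a shared day or mouse. With the replicate block, 0 genes were called in Fr3 minus Fr1 (2280 at an unadjusted p under 0.05), 0 in Fr3 minus Fr2 (2561) and 0 in Fr2 minus Fr1 (2734). Same-numbered arrays deviated together with a correlation across genes of 0.43 between Fr3 and Fr1, 0.046 between Fr3 and Fr2 and 0.12 between Fr2 and Fr1. Dim probes limit Mertk, Tyro3 and Cd93 in Fr1, whose levels there are not measured above background on every array.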
